A study of Saccharomyces cerevisiae with 8 samples.

Results

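The Gcn4 amino acid biosynthesis genes are 39 genes for the synthesis of amino acids and their precursors together with GCN4, the gene of the transcription factor that controls them. They were taken by gene name from a table of 6596 gene models of Saccharomyces cerevisiae, and all 40 were found and passed the filter on low counts. There were 4 samples of mcd1-1 cells and 4 of wild-type (WT) cells, lettered A to D in each group. Both genotypes derive from W303-1a, which is haploid and of mating type a. They had been grown overnight in YPD, a rich medium of yeast extract, peptone and glucose, then diluted to an optical density of 0.2 and grown for 2 generations at 31 °C into log phase. MCD1, also called SCC1, is the gene for the kleisin that closes the cohesin ring around sister chromatids, and the mcd1-1 allele makes growth sensitive to temperature. Poly(A) RNA was sequenced, and the comparison is of mRNA abundance in mcd1-1 and WT cells.

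Gcn4 is a leucine-zipper activator that binds the sequence TGACTCA in the promoters of amino acid synthesis genes. When an amino acid runs short, uncharged tRNA activates the kinase Gcn2, which phosphorylates the initiation factor eIF2, and lower eIF2 activity lets ribosomes pass the short upstream reading frames of GCN4 mRNA and translate Gcn4. Control is thus mainly at translation, and GCN4 mRNA need not follow the amount of the protein. In rich medium amino acids are taken up from outside, and the pathways run at a basal level. Pathway-specific factors act beside Gcn4, among them the arginine repressor complex with Mcm1, Lys14 in lysine synthesis and Leu3 in branched-chain synthesis.

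Totals were 24091037 to 58506447 counts in mcd1-1 libraries and 22331070 to 44217331 in WT libraries, and every member had counts far above the floor of 3 counts (0.0513 to 0.125 CPM in mcd1-1 and 0.0679 to 0.134 CPM in WT, counting error only). Values are counts per 1e+06 counts (CPM) after TMM scaling, listed for replicates A to D in turn, and a value ± another without a unit is a log2 fold change of mcd1-1 over WT ± SE. Replicates A and B stood apart from C and D in both groups. Across all 6558 genes tested, longer models were higher in C and D than in A and B (Spearman rho = 0.388 in mcd1-1 and 0.519 in WT, over genes, which are not independent replicates). The fold change itself had rho = 0.038 with model length, but rho = -0.492 with mean CPM. The mutated gene itself, MCD1, held 378, 288, 286 and 295 CPM in mcd1-1 and 80.7, 87.2, 75 and 78.1 CPM in WT (1.96 ± 0.15, adjusted p = 4.5e-05), and as the allele is no deletion this level does not check the labels. The 7 a-specific genes summed to 703 to 981 CPM in mcd1-1 and 985 to 1181 CPM in WT. Among them AGA2 rose (0.55 ± 0.15, adjusted p = 0.016), and 6 were not called, STE2 (-0.41 ± 0.21), STE6 (-0.53 ± 0.29), BAR1 (-0.42 ± 0.18) and MFA2 (-0.69 ± 0.35) with negative values and MFA1 (0.60 ± 0.42) and ASG7 (0.63 ± 0.39) with positive ones. With the replicate block 3 of the 7 were higher and 3 lower. The α-factor gene MF(ALPHA)1 lay at 4.36 to 7.07 CPM in mcd1-1 and 0.452 to 0.953 CPM in WT, and 3 of 4 α-specific genes were called higher in mcd1-1, 4 of 4 with the replicate block. A rise was called for 20.7% of all genes and for 755 of the 1639 least abundant ones, among which 3 of these 4 lie. The 4 summed to 108 to 146 CPM in mcd1-1 and 35.7 to 45.9 CPM in WT, and no marker was at 0 in any library. Among 6 genes with marker alleles in the strain background (5 for nutrient requirements, and the arginine permease gene CAN1), URA3 fell (-1.37 ± 0.16, adjusted p = 0.00041), at 99.0 to 141 CPM in mcd1-1 and 283 to 367 CPM in WT. HIS3 (-0.01 ± 0.21), LEU2 (0.42 ± 0.18), TRP1 (0.40 ± 0.21), ADE2 (0.37 ± 0.21) and CAN1 (-0.15 ± 0.27) were not called, but TRP1 (0.40, adjusted p = 0.026) and ADE2 (0.40, adjusted p = 0.015) were higher with the replicate block. The letter pairs enter some fits below, but what lies behind them and the part of the markers in the results were not tested. No label says that the replicates were separate cultures, so p-values measure only the spread between these samples, which may be technical.

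The differences of these genes between mcd1-1 and WT were mostly negative, and how many passed the test depended on the model. With group alone 23 of the 40 were not called, while 12 were not called once the replicate letter was a block. Of the 40, 15 fell and 2 rose at an adjusted p under 0.05 in edgeR's quasi-likelihood test on group alone, with 34 of the 40 log2 fold changes negative. LEU9 of leucine synthesis (-1.43 ± 0.29), HIS1 of histidine synthesis (-1.17 ± 0.26), ASN1 of asparagine synthesis (-1.08 ± 0.36) and the ornithine carrier gene ORT1 (-1.0 ± 0.17) fell most, while SER3 of serine synthesis (1.5 ± 0.31) and LYS1 of lysine synthesis (0.94 ± 0.14) rose. The median log2 fold change was -0.49 over the members and -0.01 over all genes tested. A fall was called for 37.5% of members and for 19.7% of all genes, and a rise for 5.0% of members and for 20.7% of all genes. These genes are abundant, however. Of the 40, 36 lay among the 1640 most abundant genes (a mean of 148 CPM and above), where 37.8% of all genes were called lower and 5.55% higher and the median log2 fold change was -0.40. Of those 36 members 13 fell (36.1%) and 2 rose, with a median of -0.48, so the share of falls was near that of other abundant genes. In 18 members all 4 mcd1-1 libraries lay below all 4 WT libraries and in 2 all lay above, against 21.0% and 22.1% of all genes. Among the 1640 most abundant genes, 649 lay below and 118 above in this way. The log2 fold change was negative in 1229 of those 1640 genes and in 3320 of all 6558 genes tested. Counts per library are relative, so that a fall of these mRNAs and a rise of the others cannot be told apart. As RNA came from whole samples, neither can less of an mRNA per cell and fewer cells that express it.

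**Figure D1:**
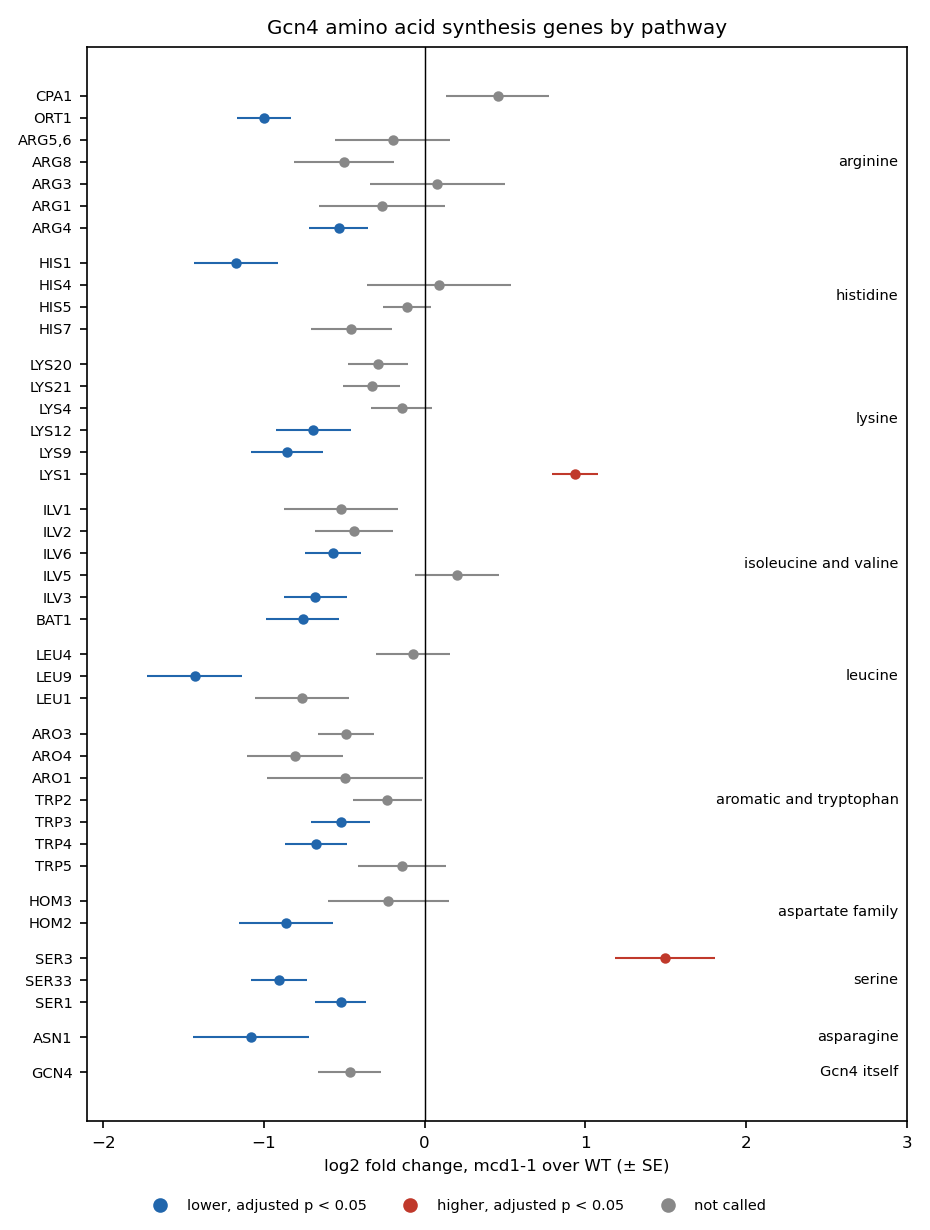
Log2 fold change of mcd1-1 over WT (x axis) for the 40 members (rows, grouped by pathway), with bars of 1 SE from the edgeR fit over 4 libraries a group. Points lie left of 0 in 34 of 40 rows. The 15 falls are blue, the 2 rises, LYS1 and SER3, are red, and genes that were not called are grey.

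The number of falls depended on how the replicates were handled. With the replicate letter as a block, 26 members were lower (65.0%, against 30.2% of all genes and 53.3% of the 1640 most abundant) and the same 2 higher (29.4% of all genes), and the 15 falls were among the 26. Leaving out mcd1-1 A left 4 of the falls, mcd1-1 B 6, WT A 9, and WT B or WT C 8 each, while leaving out mcd1-1 C or WT D left 10. Without mcd1-1 D 14 were lower, 12 of them among the 15. Falls over all genes dropped as well, from 1291 with all libraries. They numbered 985, 859, 960 and 1014 without mcd1-1 A, B, C or D, and 1049, 991, 1204 and 1249 without WT A, B, C or D. DESeq2 called 19 lower and 2 higher (23.8% and 23.2% of all genes), and limma-voom 18 and 2 (19.8% and 20.8%). These shares cover genes of every abundance. Among the 1640 most abundant genes falls were commoner in edgeR, at 37.8% with group alone and 53.3% with the block. Under library size alone 4 falls and both rises were called (8.39% and 37.5% of all genes). That scaling moved the median of all genes to 0.33 and that of the members to -0.17. A total of 6 members kept their call without each library in turn and under library size alone. They were ORT1, HIS1, LEU9 and SER33 among the falls, and LYS1 and SER3 among the rises. The median over the members of log2 CPM, set against each gene's mean over the 8 libraries, was -0.43, -0.64, 0.07 and 0.12 in mcd1-1 A to D and 0.09, 0.05, 0.41 and 0.42 in WT A to D. Within either letter pair the mcd1-1 libraries were lower than the WT libraries, but mcd1-1 C and D lay close to WT A and B.

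**Figure D2:**
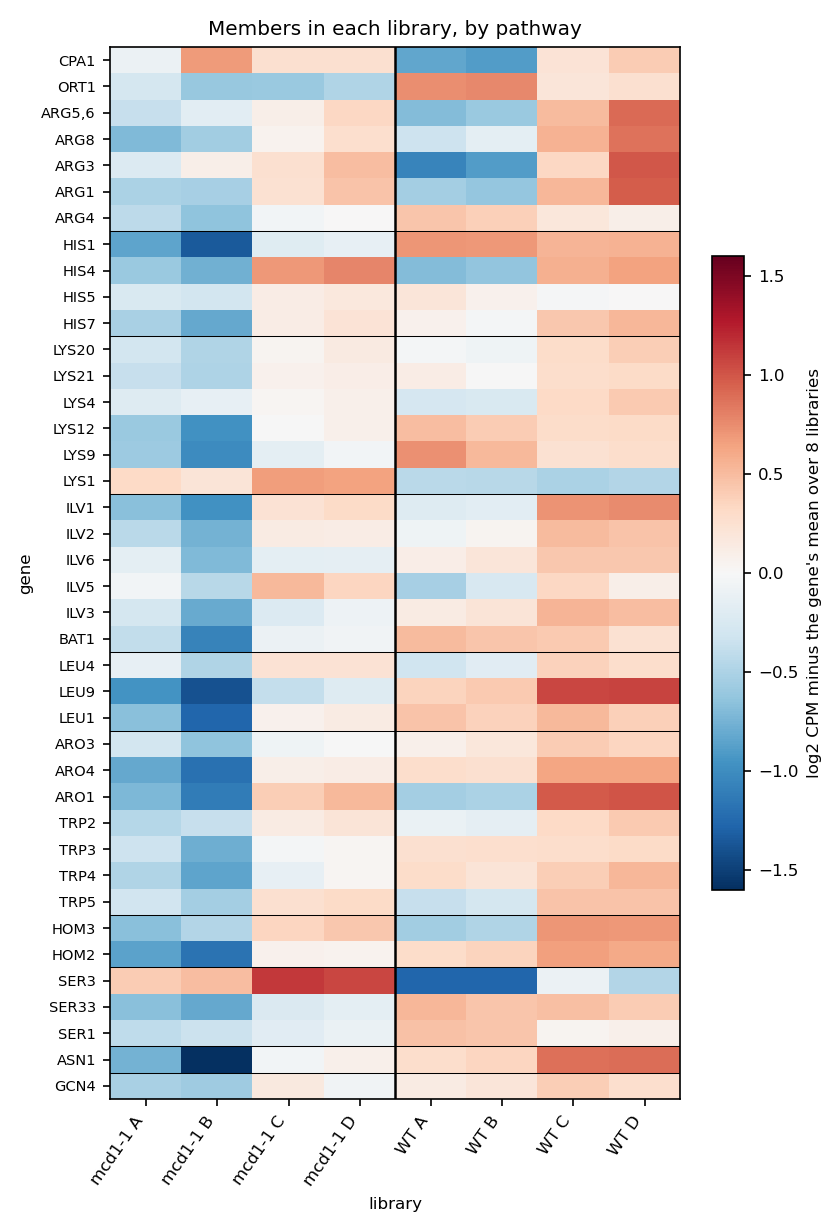
Each row is a member, in the order of its pathway with lines between pathways, and each column a library, with mcd1-1 left of WT. Colour gives log2 CPM minus the gene's mean over the 8 libraries, from blue (lower) to red (higher). mcd1-1 B is the lowest library in the median over members (-0.64), and WT C and D are the highest (0.41 and 0.42).

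**Figure D3:**
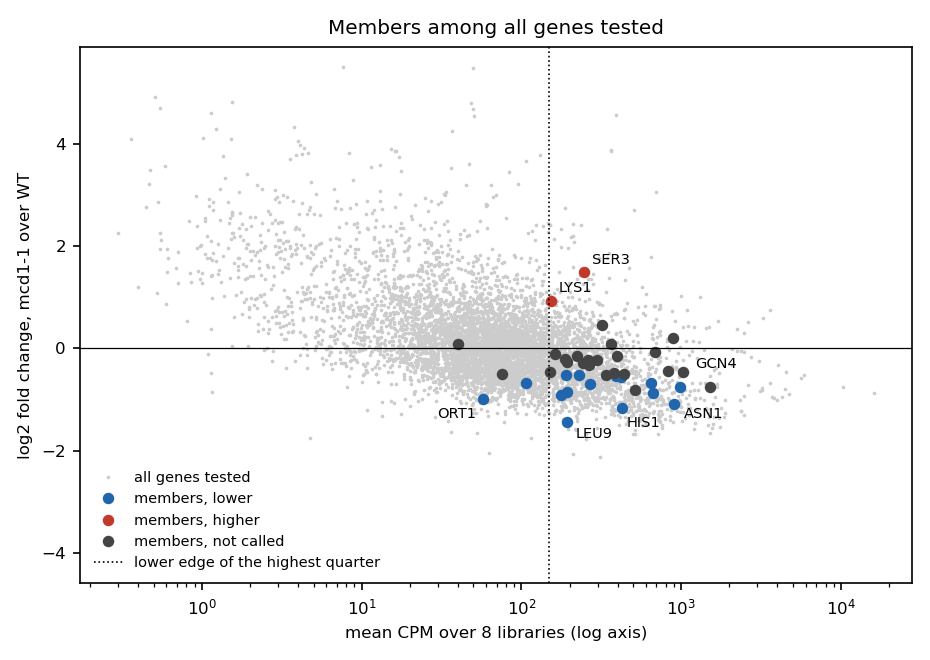
Mean CPM over the 8 libraries (x axis, logarithmic) against the log2 fold change of mcd1-1 over WT (y axis) for the 6558 genes tested in grey and the members in colour. The dotted line marks 148 CPM, the lowest mean among the 1640 most abundant genes, and 36 of the 40 members lie to its right, where the median of all genes is -0.40.

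The letters bound by Gcn4 were searched for from 250 bases before to 50 after the start codon of each gene, on both strands. TGACTCA was found at 19 of the 40 members (47.5%), against 164 of 6001 promoters (2.73%). The members were chosen as genes under Gcn4, so the difference between these shares is no independent result. TGACTCA was at 9 of the 15 members that fell, 1 of the 2 that rose and 9 of the 23 that were not called. The 6-letter core TGACTC, which TGACTCA contains and which the factor Bas1 also binds, was at 24 members (60.0%) and at 7.98% of all promoters. By call it was at 13 of 15 that fell, 1 of 2 that rose and 10 of 23 not called. Where TGACTCA was present in a member its first base lay between 250 and 101 bases before the start codon. The Leu3 letters, CCGG then any NN then CCGG, were at BAT1 and LEU1 (0.133% of all promoters). The letters TCCNNNGGA, bound by Lys14, were at LYS1, LYS9, LYS12 and LEU9 (3.40% of all promoters), at LEU9 outside the stretch shown. A match describes the sequence and is no site, and a missing match says only that the letters are not in this window. The stretches from 250 to 51 bases before the start codon are shown for the 2 members that rose and for LEU9, ASN1, ORT1 and SER33, which were among the members that fell most, because these genes carry large differences. They run 5′ to 3′ in the direction of the gene, from the RefSeq genome of build R64, with TGACTCA (or TGAGTCA on the other strand) and TCCNNNGGA in capitals.
SER3, chrV:322436-322635, plus strand: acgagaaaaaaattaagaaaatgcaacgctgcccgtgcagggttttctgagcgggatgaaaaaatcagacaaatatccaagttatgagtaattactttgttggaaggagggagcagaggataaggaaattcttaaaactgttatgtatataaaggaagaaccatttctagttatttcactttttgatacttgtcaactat
LYS1, chrIX:420787-420986, minus strand: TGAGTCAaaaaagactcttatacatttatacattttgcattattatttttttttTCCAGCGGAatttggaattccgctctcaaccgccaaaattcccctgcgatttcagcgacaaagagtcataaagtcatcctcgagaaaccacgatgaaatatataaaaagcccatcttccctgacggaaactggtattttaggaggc
LEU9, chrXV:522777-522976, plus strand: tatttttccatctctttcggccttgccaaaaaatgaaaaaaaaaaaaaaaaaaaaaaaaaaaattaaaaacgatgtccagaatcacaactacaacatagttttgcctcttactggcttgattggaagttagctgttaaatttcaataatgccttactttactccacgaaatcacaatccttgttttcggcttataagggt
ASN1, chrXVI:822370-822569, plus strand: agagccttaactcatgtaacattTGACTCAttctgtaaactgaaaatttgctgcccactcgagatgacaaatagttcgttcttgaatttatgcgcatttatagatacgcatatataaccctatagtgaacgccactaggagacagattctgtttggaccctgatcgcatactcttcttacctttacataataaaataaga
ORT1, chrXV:570858-571057, minus strand: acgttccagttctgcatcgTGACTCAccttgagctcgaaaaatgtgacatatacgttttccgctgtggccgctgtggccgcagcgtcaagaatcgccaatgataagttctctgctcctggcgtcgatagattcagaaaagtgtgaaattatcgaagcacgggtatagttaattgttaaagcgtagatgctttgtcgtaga
SER33, chrIX:222541-222740, minus strand: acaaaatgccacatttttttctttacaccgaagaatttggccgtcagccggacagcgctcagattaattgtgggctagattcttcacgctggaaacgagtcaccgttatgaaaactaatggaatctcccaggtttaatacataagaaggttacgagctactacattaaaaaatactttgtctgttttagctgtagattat
In these stretches TGACTCA stood at LYS1, ASN1 and ORT1, and at none of SER3, LEU9 and SER33, although SER33 held the core TGACTC. Stretches with and without the 7 letters were found among the falls and among the rises.

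GCN4 (YEL009C, chrV:138918-139763) was the most abundant member per length, at 1014 CPM per kb in mcd1-1 and 1401 CPM per kb in WT. Its libraries held 696, 672, 1108 and 956 CPM in mcd1-1 and 1089, 1143, 1308 and 1202 CPM in WT. The mcd1-1 values A, B and D lay below every WT value, while mcd1-1 C lay above WT A. The difference was not called (-0.47 ± 0.20, adjusted p = 0.086), and it was called lower with the replicate block (-0.50, adjusted p = 0.024) and by DESeq2 (adjusted p = 0.038). It was also called with the letter pair as a term (0.0062) and within A and B (0.0095) or C and D alone (0.043). Here and for the genes below, these fits call many genes. The letter pair as a term gave 2241 of all 6558 genes lower. A and B alone gave 32.9% lower and 34.8% higher, and C and D alone 37.1% and 38.8%. No other alternative called GCN4, including the other scalings and filters and the fits that left out each library in turn. The values were -0.50 by limma-voom (adjusted p = 0.066) and -0.14 under library size alone (adjusted p = 0.57). Within replicates A and B the log2 fold change was -0.71, and within C and D it was -0.25.

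Of the 7 arginine genes 2 fell and 5 were not called. ORT1 (YOR130C, chrXV:569929-570807), the mitochondrial carrier that exports ornithine, held 44.4, 35.3, 35.5 and 38.3 CPM in mcd1-1 and 89.5, 91.7, 61.3 and 64.4 CPM in WT. The groups did not overlap, and ORT1 fell (-1.0 ± 0.17, adjusted p = 0.0019). ARG4, argininosuccinate lyase, held 285, 245, 369.6 and 386 CPM in mcd1-1 and 518, 499, 435 and 409.6 CPM in WT. It fell (-0.53 ± 0.18, adjusted p = 0.044), but the call was lost when any 1 library but WT D was left out (adjusted p up to 0.14), with upper-quartile factors (0.084) and with library size alone (0.36), with a filter of 10 CPM in 4 libraries (0.056) and in C and D alone (0.086). ARG8, acetylornithine aminotransferase, was not called (-0.50 ± 0.31, adjusted p = 0.22) but was lower with the replicate block (-0.48, adjusted p = 0.0042).

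The other 4 arginine genes had WT libraries that differed between the letter pairs. So did ARG8 (56.3, 63.5, 104 and 129 CPM in WT), and ORT1 and ARG4 did so in the other order. CPA1, the small subunit of carbamoyl phosphate synthetase, held 282, 483, 359.8 and 358 CPM in mcd1-1 and 169.6, 162, 352 and 399 CPM in WT. ARG3, ornithine carbamoyltransferase, the member of lowest level per length (40.7 CPM per kb in mcd1-1 and 38.5 CPM per kb in WT), held 31.5, 39.0, 43.6 and 51.5 CPM in mcd1-1 and 17.6, 19.6, 46.2 and 73.1 CPM in WT. WT A and B were the lowest libraries of both genes. ARG5,6, whose product makes the acetylglutamate kinase and the next enzyme of ornithine synthesis, ranged from 135 to 219 CPM in mcd1-1 and from 108 to 326 CPM in WT. ARG1, argininosuccinate synthetase, ranged from 122 to 243 CPM in mcd1-1 and from 115 to 346 CPM in WT. In all 4 genes WT C and D lay above WT A and B. Over all libraries CPA1 (0.45 ± 0.32), ARG3 (0.08 ± 0.42), ARG5,6 (-0.20 ± 0.36) and ARG1 (-0.26 ± 0.39) were not called, and 323 bp of ARG5,6 lie in the overlapping model YER068C-A. Within A and B their log2 fold changes were 1.2, 0.92, 0.38 and 0.06, and within C and D they were -0.03, -0.29, -0.47 and -0.38. CPA1 (adjusted p = 0.0016) and ARG3 (0.0012) were called higher within A and B, and ARG1 lower within C and D (0.027). ARG5,6 was called higher within A and B (adjusted p = 0.016) and lower within C and D (0.0079). Of all genes 34.8% were called higher within A and B, and 37.1% lower within C and D.

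Of the 4 histidine genes HIS1 fell and 3 were not called. HIS1 (YER055C, chrV:264892-265785) encodes ATP phosphoribosyltransferase, the first enzyme of the pathway. It held 214, 151, 336 and 350.3 CPM in mcd1-1 and 627, 622, 559.7 and 564 CPM in WT, so that every WT library was above every mcd1-1 library (-1.17 ± 0.26, adjusted p = 0.0068). HIS4, a trifunctional enzyme of later steps, held 215, 192, 527 and 559 CPM in mcd1-1 and 202, 211, 481 and 509 CPM in WT, and its values followed the letters rather than the genotype (0.09 ± 0.45). HIS5, the histidinol phosphate aminotransferase, was not called (-0.11 ± 0.15), but was lower within A and B (-0.40, adjusted p = 0.010) and higher within C and D (0.19, adjusted p = 0.0054). HIS7, imidazole glycerol phosphate synthase, ranged from 81.6 to 167 CPM in mcd1-1 and from 141 to 209 CPM in WT and was not called (-0.46 ± 0.25, adjusted p = 0.17), but was lower with the replicate block (-0.50, adjusted p = 0.0097).

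Lysine synthesis went both ways, with 2 falls and 1 rise among 6 genes. LYS1 (YIR034C, chrIX:419615-420736) encodes saccharopine dehydrogenase, the last enzyme of the pathway. It held 179, 166, 230.0 and 225 CPM in mcd1-1 and 107, 106, 101 and 104 CPM in WT, and averaged 200.2 ± 32.1 CPM in mcd1-1 and 105 ± 2.48 CPM in WT (SD, n = 4 each). All 4 mcd1-1 libraries were higher, in both letter pairs, and LYS1 rose (0.94 ± 0.14, adjusted p = 0.0013). LYS9, the enzyme of the step before it, held 121, 89.8, 162 and 176 CPM in mcd1-1 and 300.1, 259, 214 and 220.5 CPM in WT. LYS9 thus fell where LYS1 rose (-0.86 ± 0.23, adjusted p = 0.015), though not without mcd1-1 A (adjusted p = 0.057) or under library size alone (0.063). LYS12, homoisocitrate dehydrogenase, held 168, 129.5, 252 and 268 CPM in mcd1-1 and 358, 337, 311 and 314 CPM in WT. It also fell (-0.69 ± 0.23, adjusted p = 0.039), a call lost under upper-quartile scaling (0.054), under library size alone (0.19) and when any 1 library but mcd1-1 C or D was left out (adjusted p up to 0.13).

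The first step of lysine synthesis has a pair of homocitrate synthase genes, LYS20 and LYS21, which are 95% identical over 1172 bp, so that their single values are uncertain if reads were shared. LYS20 held 194, 169.8, 246 and 262 CPM in mcd1-1 and 234, 227, 292 and 312 CPM in WT. LYS21 held 200.1, 184, 271 and 279 CPM in mcd1-1 and 279.8, 258, 315 and 319.8 CPM in WT. Neither was called (LYS20 -0.29 ± 0.19, adjusted p = 0.24, LYS21 -0.33 ± 0.18, adjusted p = 0.17), and both were lower with the replicate block (-0.30, adjusted p = 0.036 and -0.35, adjusted p = 0.03). LYS4, homoaconitase, was not called either (-0.14 ± 0.19).

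Of the 6 genes for isoleucine and valine 3 fell. BAT1, the mitochondrial branched-chain aminotransferase, held 712, 444, 874 and 894 CPM in mcd1-1 and 1322, 1273, 1248 and 1103 CPM in WT (-0.76 ± 0.23, adjusted p = 0.025). ILV3, dihydroxyacid dehydratase, held 516, 357, 538 and 590.0 CPM in mcd1-1 and 684, 722, 914 and 884 CPM in WT (-0.68 ± 0.19, adjusted p = 0.021). ILV6, the regulatory subunit of acetolactate synthase, held 367, 252, 369 and 370.3 CPM in mcd1-1 and 441, 471, 552 and 551 CPM in WT (-0.57 ± 0.17, adjusted p = 0.028). In these 3 genes no mcd1-1 library reached the lowest WT library, and ILV3 and ILV6 had nearly equal log2 fold changes in both letter pairs (-0.69 and -0.56 in A and B, -0.64 and -0.54 in C and D). All of these calls were lost under library size alone (adjusted p = 0.11, 0.13 and 0.24). BAT1 was not called without mcd1-1 A (0.079), WT A (0.059) or WT B (0.057). ILV3 was not called without mcd1-1 A, B or C or WT C (up to 0.066), nor ILV6 when any 1 library but WT A or B was left out (up to 0.072).

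ILV2, the catalytic subunit of acetolactate synthase, ranged from 469.7 to 865 CPM in mcd1-1 and from 756 to 1129 CPM in WT, and ILV1, threonine deaminase, from 159 to 387 CPM in mcd1-1 and from 271 to 526 CPM in WT. Neither was called (ILV2 -0.44 ± 0.24, adjusted p = 0.17, ILV1 -0.52 ± 0.35, adjusted p = 0.26), and both were lower with the replicate block (-0.47, adjusted p = 0.023 and -0.55, adjusted p = 0.0059). ILV5, acetohydroxyacid reductoisomerase, held 840.0, 637, 1236 and 1101 CPM in mcd1-1 and 596, 721, 1083 and 919 CPM in WT and was not called (0.20 ± 0.26). Its mcd1-1 libraries A, C and D were above the WT libraries of the same letter, and B was below.

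In leucine synthesis LEU9 fell, and LEU4 and LEU1 were not called. LEU4 and LEU9 encode the isopropylmalate synthases of the first committed step, LEU4 the major one, and are 81.3% identical over 1637 bp. LEU9 (YOR108W, chrXV:523027-524841) held 85.0, 63.0, 127 and 143 CPM in mcd1-1 and 211, 221, 347 and 348 CPM in WT, and averaged 105 ± 37.0 CPM in mcd1-1 and 282 ± 76.2 CPM in WT (SD, n = 4 each). Every mcd1-1 library was below every WT library, in both letter pairs (-1.43 ± 0.29, adjusted p = 0.0047), and 210 bp of LEU9 lie in the overlapping model YOR108C-A. LEU4 held 614, 483, 793 and 789 CPM in mcd1-1 and 539, 592, 867 and 820.2 CPM in WT, and the groups overlapped (-0.07 ± 0.23). LEU1, isopropylmalate isomerase, held 878, 581, 1466 and 1534 CPM in mcd1-1 and 1922, 1814, 2012 and 1824 CPM in WT. Its groups did not overlap, yet LEU1 was not called (-0.76 ± 0.29, adjusted p = 0.063). It was called lower with the replicate block (-0.87, adjusted p = 0.021), by DESeq2 (0.022) or limma-voom (0.041), with the letter pair as a term (0.0072), within A and B (0.0016) or C and D alone (0.0083), and without mcd1-1 D (0.049).

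All 7 genes of the aromatic and tryptophan branch had negative log2 fold changes, and 2 fell. TRP4, anthranilate phosphoribosyltransferase, held 73.1, 56.5, 93.0 and 104 CPM in mcd1-1 and 125, 117, 134 and 146 CPM in WT (-0.68 ± 0.19, adjusted p = 0.021). TRP3, the partner subunit of anthranilate synthase and indole glycerol phosphate synthase, held 147, 108, 181 and 189.5 CPM in mcd1-1 and 222, 222, 225 and 228 CPM in WT (-0.52 ± 0.18, adjusted p = 0.046). Neither overlapped between groups. TRP4 was not called without mcd1-1 A (0.082) or B (0.063) or under library size alone (0.14), and 144 bp of it lie in the overlapping model YDR354C-A. TRP3 was not called when any 1 of the 8 libraries was left out (adjusted p up to 0.15), under upper-quartile scaling (0.073) or library size alone (0.37), or with the filter of 10 CPM (0.059).

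The synthases of the first aromatic step are ARO3, inhibited by phenylalanine, and ARO4, inhibited by tyrosine. ARO3 held 304, 238, 354 and 371 CPM in mcd1-1 and 394, 421, 493 and 473 CPM in WT (-0.49 ± 0.18, adjusted p = 0.0502). ARO4 held 269, 208, 507 and 514 CPM in mcd1-1 and 579.5, 569.5, 735 and 734 CPM in WT (-0.81 ± 0.30, adjusted p = 0.057). Both had separate groups and missed the threshold, and both were called lower with the replicate block (-0.51, adjusted p = 0.012 and -0.90, adjusted p = 0.0057), by DESeq2 (0.014 and 0.020) and by limma-voom (0.042 and 0.038). The same held with the letter pair as a term (0.0021 and 0.00096), within A and B (0.011 and 0.00030) and within C and D (0.00042 and 9.6e-05). ARO3 was also called under RLE scaling (0.046) and under TMM without ribosomal protein genes (0.042), and ARO4 without mcd1-1 D (0.048). ARO1, a pentafunctional enzyme and the longest member at 4767 bp, held 231, 176, 500.4 and 547 CPM in mcd1-1 and 263, 269, 754 and 767 CPM in WT. Its letter pairs differed by more than its groups (-0.50 ± 0.48, adjusted p = 0.44), and it was lower with the replicate block (-0.47, adjusted p = 0.015). Overlapping models also cover 90 bp of TRP2 and 36 bp of LEU4, and without a stated strand setting reads of overlapping models cannot be told apart. TRP2, the anthranilate synthase (-0.23 ± 0.21), and TRP5, tryptophan synthase (-0.14 ± 0.27), were not called.

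HOM3 and HOM2 act at the first and second steps from aspartate towards threonine and methionine. HOM2, aspartate semialdehyde dehydrogenase, held 340.0, 269.9, 647 and 636 CPM in mcd1-1 and 755, 788, 965 and 939 CPM in WT. The groups did not overlap, and HOM2 fell (-0.86 ± 0.29, adjusted p = 0.04), though not under library size alone (0.13) or when any 1 library but mcd1-1 C or D was left out (adjusted p up to 0.13). HOM3, aspartate kinase, ranged from 153 to 328 CPM in mcd1-1 and from 166 to 398 CPM in WT and was not called (-0.23 ± 0.37).

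ASN1 encodes asparagine synthetase. It held 466, 244, 758 and 827 CPM in mcd1-1 and 958, 999.9, 1449 and 1456 CPM in WT, and averaged 574 ± 270.1 CPM in mcd1-1 and 1216 ± 274 CPM in WT (SD, n = 4 each). The 4 mcd1-1 libraries were all lower, with mcd1-1 B the lowest, and ASN1 fell (-1.08 ± 0.36, adjusted p = 0.038). The call was lost under library size alone (0.091) and without mcd1-1 A, mcd1-1 B, WT B, WT C or WT D (adjusted p up to 0.12). Its paralog ASN2, no member of the set and 81.2% identical over 1709 bp, held 662, 503, 663 and 669 CPM in mcd1-1 and 1200.0, 1168, 934 and 916 CPM in WT and fell as well (-0.76 ± 0.17, adjusted p = 0.0073).

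Serine synthesis showed the opposite behaviour of a paralog pair. SER3 and SER33 both encode 3-phosphoglycerate dehydrogenase, the first enzyme of the pathway, and are 83.3% identical over 1391 bp. SER3 is known to be held down in serine-replete cells by transcription of the upstream noncoding gene SRG1 across its promoter. SER3 (YER081W, chrV:322686-324095) held 274, 290.0, 451 and 435 CPM in mcd1-1 and 85.6, 85.8, 194 and 149 CPM in WT, an average of 363 ± 93.3 CPM in mcd1-1 and 129 ± 52.8 CPM in WT (SD, n = 4 each). The lowest mcd1-1 library was above the highest WT library, and SER3 rose (1.5 ± 0.31, adjusted p = 0.0049). SER33 (YIL074C, chrIX:221081-222490) held 105, 94.0, 142 and 149.8 CPM in mcd1-1 and 241, 226, 233 and 219.8 CPM in WT, an average of 123 ± 27.4 CPM in mcd1-1 and 230.2 ± 9.23 CPM in WT (SD, n = 4 each). Here every mcd1-1 library was below every WT library, and SER33 fell (-0.91 ± 0.17, adjusted p = 0.0035). SER1, the phosphoserine aminotransferase of the next step, held 169, 177, 199 and 209 CPM in mcd1-1 and 311, 304, 231 and 237 CPM in WT. It fell (-0.52 ± 0.16, adjusted p = 0.026), though not under upper-quartile scaling (0.078), under library size alone (0.36) or without mcd1-1 A, B or C, WT A or WT B (adjusted p up to 0.086).

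**Figure D4:**
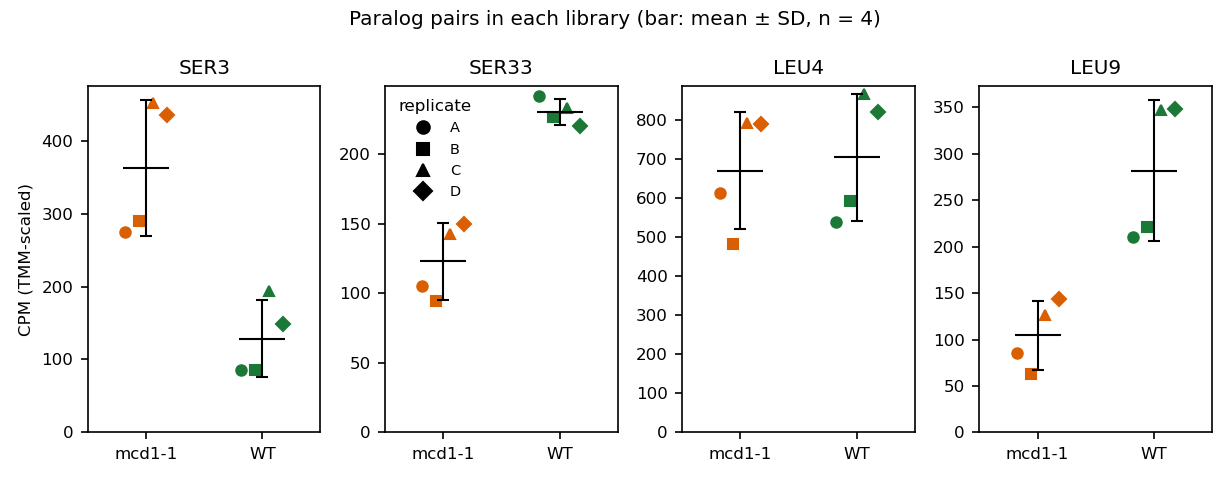
CPM (y axis, from 0) of SER3, SER33, LEU4 and LEU9 in each library, with mcd1-1 in orange left of WT in green, symbols for the replicate letters and bars for mean ± SD (n = 4). SER3 is above and SER33 and LEU9 are below the WT range in each mcd1-1 library, while the LEU4 ranges overlap.

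Ratios between paralogs within a library do not depend on the scaling between libraries. The log2 ratio of SER3 to SER33 was 1.38, 1.63, 1.66 and 1.54 in mcd1-1 and -1.50, -1.40, -0.27 and -0.56 in WT. SER3 thus had more counts than SER33 in every mcd1-1 library, and SER33 had more in every WT library. Their sum averaged 485 CPM in mcd1-1 and 359 CPM in WT. The log2 ratio of LEU4 to LEU9 was 2.85, 2.94, 2.64 and 2.46 in mcd1-1 and 1.35, 1.42, 1.32 and 1.24 in WT. LEU4 led in all libraries, by more in each mcd1-1 library than in any WT library. For LYS20 to LYS21 (-0.10 ± 0.04 in mcd1-1 and -0.15 ± 0.10 in WT, SD), ARO3 to ARO4 (-0.15 ± 0.39 and -0.55 ± 0.08, mcd1-1 and WT), ASN1 to ASN2 (-0.26 ± 0.63 and 0.19 ± 0.54, mcd1-1 and WT) and BAT1 to BAT2 (1.70 ± 0.51 and 1.59 ± 0.43, mcd1-1 and WT) the ranges overlapped. BAT2, the cytosolic aminotransferase and no member of the set, held 261, 206, 199.99 and 206 CPM in mcd1-1 and 589, 528, 321 and 283 CPM in WT and fell (-0.98 ± 0.25, adjusted p = 0.013). These ratios are descriptions of pairs chosen with earlier results known and were given no test.

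The size of the difference depended on the letter pair for some members. In a fit with an interaction of genotype and letter pair, 15 of the 40 (37.5%) passed an adjusted p of 0.05, against 36.7% of all genes, a share near the background. In 11 of these the log2 fold change was higher in C and D than in A and B, and in 4 it was lower. HIS1 went furthest down in A and B (-1.78, against -0.67 in C and D), and LYS9 (-1.41 and -0.32), LEU1 (-1.36 and -0.32) and LYS12 (-1.23 and -0.23) had the same order, A and B first. Genes of the other kind were CPA1, ARG3, ARG5,6 and LYS4. The fold change was more negative in A and B than in C and D for 29 of 40 members, and 7 members had opposite signs in the pairs. Fitted alone, A and B gave 26 members lower and 5 higher (32.9% and 34.8% of all genes), and C and D gave 30 lower and 5 higher (37.1% and 38.8%). The median over the members was -0.58 in A and B and -0.31 in C and D, and 0.03 and 0.01 over all genes. Over the 1640 most abundant genes, where 36 of the members lie, it was -0.43 in A and B and -0.32 in C and D. Within mcd1-1, 38 of 40 members were higher in C and D than in A and B (median log2 difference 0.63), and within WT 30 of 40 were (0.37). The corresponding medians over all genes were -0.01 in mcd1-1 and -0.05 in WT.

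**Figure D5:**
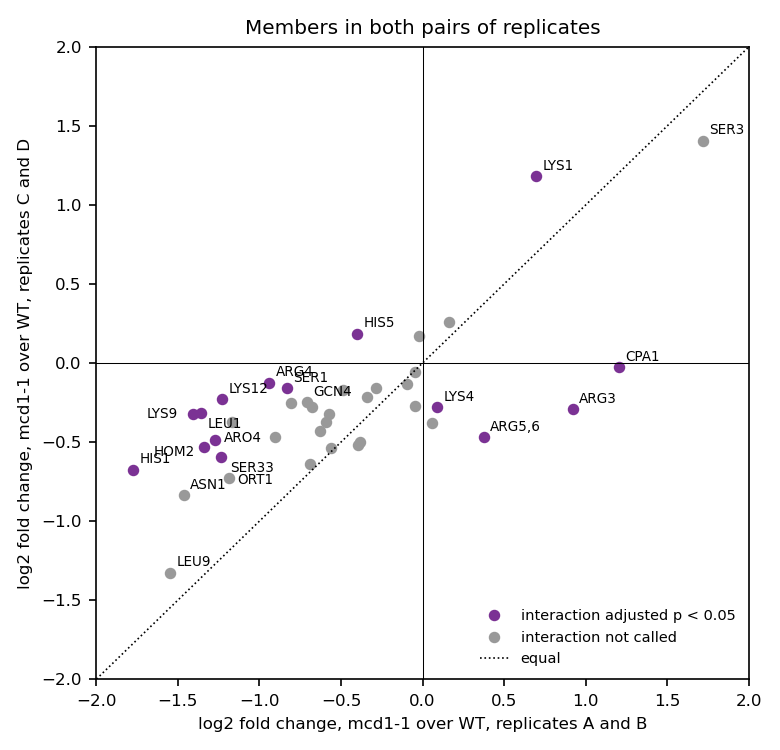
Log2 fold change of mcd1-1 over WT in replicates A and B (x axis) against that in C and D (y axis) for the 40 members, with the 15 of adjusted interaction p under 0.05 in purple and a dotted line of equality. Most points lie above the line at negative values, SER3, LYS1 and LEU9 lie far from 0 on both axes, and CPA1, ARG3 and ARG5,6 lie to the lower right.

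Members were also divided by where the enzyme works. Of the 13 mitochondrial ones 6 fell and 0 rose (median -0.52), and of the other 27 members 9 fell and 2 rose (median -0.47). With the replicate block 9 of 13 and 17 of 27 were lower. These shares stand beside 19.7% lower among all genes and 37.8% among the 1640 most abundant, and the difference between the locations was not tested.

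Other genes of amino acid synthesis, not in the set, were also counted, and 13 of 31 fell and 1 rose, with a median of -0.48. The rise was GDH3 (1.84 ± 0.27, adjusted p = 0.001), the minor glutamate dehydrogenase that uses NADPH, at 85.8 ± 33.9 CPM in mcd1-1 and 24.0 ± 2.79 CPM in WT (SD, n = 4 each). ARO7, chorismate mutase (-0.93 ± 0.14), ARO2, chorismate synthase (-1.13 ± 0.19), and PRO3, the last enzyme of proline synthesis (-0.85 ± 0.17), were the falls with the smallest p. Among 18 genes that control Gcn4, 6 fell and 0 rose (median -0.32, but 0.01 under library size alone). GCN3, a subunit of the exchange factor eIF2B (-0.60 ± 0.12), and the eIF2 subunits GCD11 (-0.89 ± 0.19), SUI3 (-0.93 ± 0.21) and SUI2 (-0.89 ± 0.24) fell. The kinase gene GCN2 held 106, 122, 204 and 199.95 CPM in mcd1-1 and 74.9, 76.3, 148 and 156 CPM in WT and was not called (0.47 ± 0.32, adjusted p = 0.26), but was higher with the replicate block (0.50, adjusted p = 0.0048). Of 14 regulators of single pathways and of amino acid sensing 3 rose and 0 fell (median 0.29). They were PTR3, of the amino acid sensor at the plasma membrane (1.21 ± 0.18), STP1, the factor that this sensor activates (0.89 ± 0.18), and ARG82, a kinase needed by the arginine repressor (0.82 ± 0.24), while MKS1 was not called (0.34 ± 0.15). Of 12 coactivator genes for Gcn4 the Mediator subunit MED2 rose (0.44 ± 0.15) and 11 were not called, with GCN5 (-0.28 ± 0.12, but lower with the replicate block at -0.27, adjusted p = 0.041), GAL11 (0.41 ± 0.26) and PGD1 (0.18 ± 0.16) next in order of p. With the replicate block 19 fell and 2 rose of the other synthesis genes, 9 fell and 1 rose of those that control Gcn4, 4 rose of the regulators, and 2 fell and 2 rose of the coactivators. These lists were written with earlier results known, and each count is a description beside the 19.7% lower and 20.7% higher of all genes (30.2% and 29.4% with the block). The other synthesis genes and those that control Gcn4 are abundant too, with medians at the 87.44 and 80.55 percentile of mean CPM. Among the 1640 most abundant genes 37.8% were lower and 5.55% higher (53.3% and 12.4% with the block). The regulators and coactivators had medians at the 56.14 and 61.51 percentile.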

How the data were processed

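Poly(A) RNA-seq of 8 libraries was analysed, 4 of mcd1-1 and 4 of WT. The authors deposited raw read counts per gene model, whole numbers that were not normalized. Genome build R64, the aligner STAR 2.5.3a, the counter featureCounts 1.6.0, Trim Galore 0.4.3, bcl2fastq 2.9 and Picard appear in the submitters' processing notes. Strandedness of the counting and the handling of reads that match several genes are not given in the sources. Per the labels' protocols, libraries were made with an NEBNext Ultra RNA kit. Totals ran from 22331070 to 58506447 counts, and the common coefficient of variation between replicates was 0.253.

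Counts were filtered with filterByExpr (6558 of 6596 models kept), scaled by TMM and tested with edgeR 4.0.16 (glmQLFit and glmQLFTest, R 4.3.3) on group alone, with Benjamini-Hochberg adjustment over all genes and a threshold of 0.05. The procedure was tested on simulated counts that held no difference between letter pairs, unlike the data. Of simulated log2 changes of 1 in either direction 68% were called, and of changes of 2 98%, with 10 false calls among 6556 genes. CPM are TMM-scaled, and CPM per kb divide by the length of the model. An added fit had an interaction of group with the letter pair (A and B, C and D). Alternatives were scaling by RLE, by the upper quartile, by library size or by TMM leaving out 138 ribosomal protein genes, other filters, DESeq2 1.42.0, limma-voom (limma 3.58.1), a robust fit, the replicate letter as a block, the letter pair as a term, either pair alone, and each library left out in turn.

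The letters are shared by the groups in the labels, which do not say what a letter marks. After removal of group means, same-letter libraries correlated at 0.627 (A), 0.443 (B), 0.644 (C) and 0.607 (D). Different letters of the same pair correlated as strongly (0.485 to 0.681), and letters of different pairs down to -0.664. These values show the split of A and B from C and D, but not that a single letter pairs 1 sample of each group. The replicate block takes the letters as such a pairing, which no label states. The blocked value is printed for each member whose call the block changes, and for genes outside the set as values or counts.

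Promoters were read from the RefSeq genome of build R64, the build of the files: all 40 members have the same start and end in both. The promoter sequence of 1 member among those that fell most is not reported here. Similarity between paralogs was measured with blastn 2.17.0. The members, the lists and the alternatives were chosen with earlier results of these data known. Every member is named with its log2 fold change. Values per library are given for GCN4, for members that were called, for paralog pairs and for the extremes of level per length, and further members were added after their values were seen (CPA1, HIS4, ILV5, LEU1 and ARO1). From each related list up to 4 genes of the smallest p are named, together with GCN2 and the strain markers. MCD1 and the mating-type genes named were also chosen after their values were seen.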

Additional observations from a re-analysis of the deposited data

Results flagged for a closer look

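One library stood apart within its group in 1 of 80 checks of a gene in a group of 4. Chance flags about 1 in 20 independent groups, but these checks share 8 libraries, and a split of A and B from C and D keeps such a check from passing, so the low count says nothing about outliers. It was ILV6 in mcd1-1 B, at 252 CPM, against 367 to 370.3 CPM in the other 3 mcd1-1 libraries.

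For 15 members the log2 fold change of mcd1-1 over WT differed between the letter pairs (edgeR interaction, adjusted p under 0.05), a share of 37.5% against 36.7% of all genes. The differences below are C and D minus A and B. In arginine synthesis the fold change was more negative in C and D at CPA1 (-1.27), ARG3 (-1.25) and ARG5,6 (-0.88), and in lysine synthesis at LYS4 (-0.41). The largest differences the other way were at HIS1 (1.06), LYS9 (1.05), LEU1 (1.00) and LYS12 (0.96). ARG4 (0.78), HOM2 (0.77), ARO4 (0.74), SER1 (0.63), SER33 (0.60) and HIS5 (0.55) followed. For LYS1 the rise was larger in C and D, by 0.45.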

How the results depend on the processing

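The 2 rises were called under every alternative run, and A and B alone or C and D alone gave 5 rises each. The 15 falls became 4 under library size alone, 26 with the replicate block, 27 with the letter pair as a term, 26 in A and B alone and 30 in C and D alone, and ran from 4 to 14 when 1 library was left out. The other alternatives gave 11 to 19 falls. Falls over all genes moved as well, from 1291 of 6558 with group alone. They numbered 550 under library size alone, 1978 with the replicate block and 2241 with the letter pair as a term. In A and B alone they numbered 2164, in C and D alone 2436, and with 1 library left out 859 to 1249. The other alternatives gave 915 to 1559 over all genes. GCN4 was called lower by DESeq2 (-0.48), with the replicate block (-0.50), with the letter pair as a term (-0.49) and in A and B (-0.71) or C and D alone (-0.25). No other alternative called GCN4, among them limma-voom (-0.50), library size alone (-0.14), the other scalings and filters, and each library left out in turn. The causes were not tested. No member's sign changed under the replicate block, which changed 11 calls of members, all printed above. Under library size alone, which moved the median of all genes to 0.33, the log2 fold change turned positive for ARG5,6 (0.13), ARG1 (0.060), HIS5 (0.22), LYS20 (0.041), LYS21 (0.0021), LYS4 (0.19), LEU4 (0.25), TRP2 (0.099), TRP5 (0.18) and HOM3 (0.10). Under upper-quartile scaling HIS5 (0.011) and LEU4 (0.060) turned. In A and B alone ARG5,6 (0.38), ARG1 (0.058), HIS4 (-0.022) and LYS4 (0.088) turned, and in C and D alone CPA1 (-0.028), ARG3 (-0.29) and HIS5 (0.19). With 1 library left out, the sign changed within the ranges of ARG5,6 (-0.40 to 0.15), ARG3 (-0.16 to 0.57), ARG1 (-0.47 to 0.090), HIS4 (-0.14 to 0.35), HIS5 (-0.15 to 0.011), LEU4 (-0.18 to 0.10) and TRP5 (-0.27 to 0.041). Each member stood far above 3 counts, and the part of depth in these values was not tested.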
